A study of Mus musculus with 6 samples.

Results

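The genes described here are 10 that make nitric oxide, supply its substrate and cofactor, compete for that substrate or clear an inhibitor of the synthases: Nos1, Nos2, Nos3, Arg1, Arg2, Ass1, Asl, Gch1, Ddah1 and Ddah2. They were taken by symbol from 53801 genes in the count files, and all 10 were matched. The cells were chemically induced cardiovascular progenitor cells (ciCPCs), reprogrammed from mouse fibroblasts and passaged after colonies had been picked on day 14. All were wild type, of mixed strain (C57BL/6 with 129J/SvE), and all grew in a basal medium with BMP4, Activin A, CHIR99021 (an inhibitor of glycogen synthase kinase 3 that activates Wnt signalling) and SU5402 (an FGF receptor inhibitor). RNA sequencing covered 3 libraries at passage 3 and 3 at passage 20, and the design asks what long-term expansion does to the cells. The 10 genes were chosen with that difference already known, so their values are a description: no p-value is printed for them, and where a member is said to be past the threshold of the fit over all genes, nothing is read from it.

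Nitric oxide is made from arginine by nitric oxide synthases, which need tetrahydrobiopterin as a cofactor. Nos1 and Nos3 encode the neuronal and endothelial enzymes, which respond to calcium, and Nos2 encodes the inducible enzyme, which is controlled mainly through its transcription and is best known from activated macrophages. The citrulline left by the reaction is turned back into arginine by argininosuccinate synthase (Ass1) and argininosuccinate lyase (Asl), while the arginases (Arg1 in the cytosol, Arg2 in mitochondria) split arginine into ornithine and urea. Gch1 encodes GTP cyclohydrolase 1, which sets the rate of tetrahydrobiopterin synthesis, and Ddah1 and Ddah2 encode dimethylarginine dimethylaminohydrolases, which remove methylated arginines that inhibit the synthases.

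Total counts in genes ran from 11387738 to 17721788 per library. Levels are TMM-normalised CPM (counts scaled to library size), given as mean ± SD with n = 3 per passage. A change is the log2 fold change of passage 20 against passage 3 with its standard error (SE), from an edgeR fit to all 15143 genes that passed the filter on low counts. Nothing in the labels ties the replicates to separate cultures or names a batch, so p-values measure the spread between these libraries, which may be technical, and passage cannot be told apart from culture or harvest. Passage 20 replicate 3 stood apart: its counts differed from those of the other passage 20 libraries by 8.72 and 10.6 times the sampling noise (chi-square per degree of freedom), where the remaining replicate pairs gave 1.75 to 2.63. All 8 cardiac progenitor markers listed for a check of the label were detected, but all 8 also differed between passages, 4 higher and 4 lower at passage 20. Isl1 fell from 63.2 to 7.45 CPM and Pdgfra from 328 to 134 CPM, and Nkx2-5 rose from 1.15 to 5.24 CPM (largest adjusted p of the 8 = 0.00382, edgeR's quasi-likelihood test; examples chosen after their values were seen). These are bulk samples, in which fewer cells that express a gene and less RNA per cell cannot be told apart.

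Of the 10 genes, 7 passed the filter, and 6 of those were higher and 1 lower at passage 20 at an adjusted p under 0.05. Over all genes tested 74.3% passed that threshold, 37.0% higher and 37.3% lower, and the members' count is set beside this only for reference. The passages did not overlap in any of the 7, against 77.5% of all genes tested. The median log2 change of the 7 was 0.93, and that of all genes tested -0.01. With library sizes in place of TMM factors the median of all genes moved to -0.34, and higher genes made up 29.9% in place of 49.8% of those called, so the direction of small changes depends on the scaling. The 3 genes that did not pass the filter were Nos3, Arg1 and Arg2, each with at most 18 counts over the 6 libraries.

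**Figure D1:**
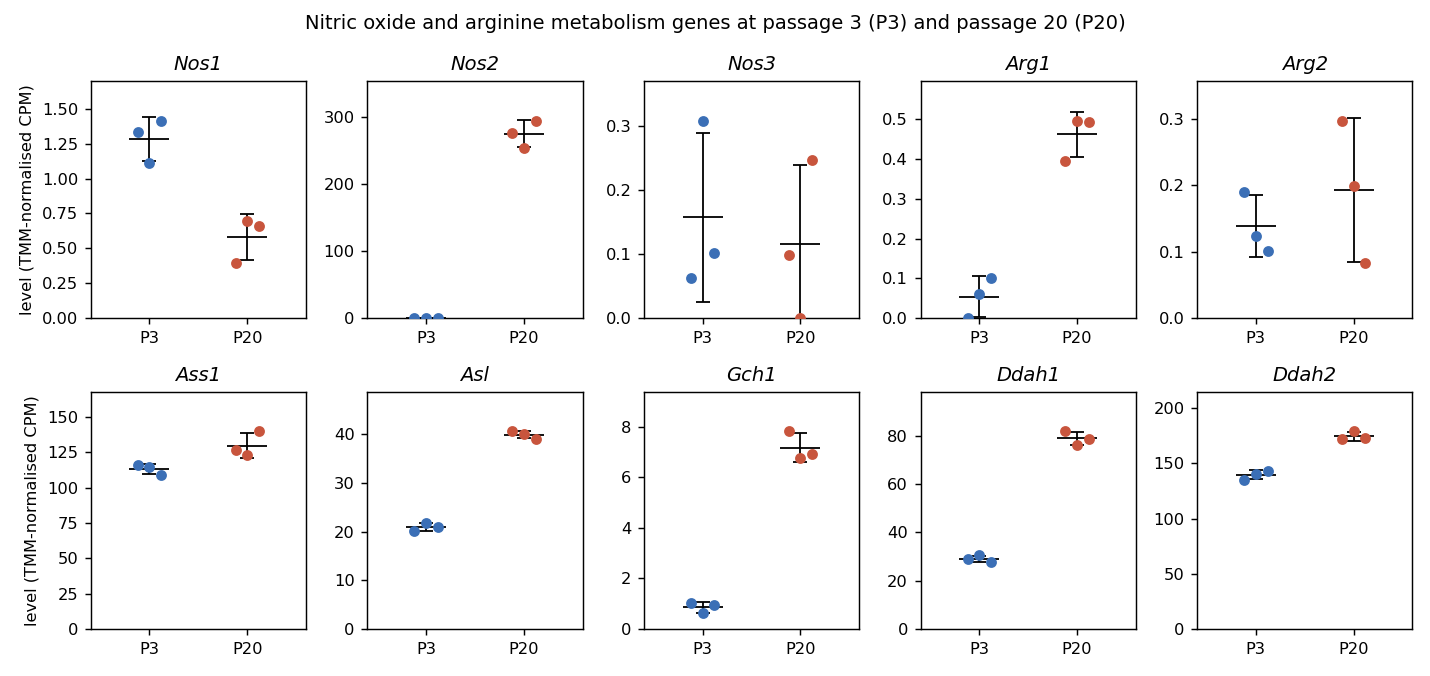
Level of each of the 10 genes (TMM-normalised CPM, axes from 0 and different for each gene) in the 3 libraries of passage 3 (blue) and of passage 20 (red). Black bars give the mean and SD and are clipped at 0; Nos2 stands near 0 in the 3 libraries of passage 3 and between 254 and 295 at passage 20.

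Among the synthases, Nos2 (ENSMUSG00000020826, GRCm38 chromosome 11, 78920787 to 78960254, plus strand) was close to the detection limit at passage 3 and abundant at passage 20. It had 9, 5 and 15 counts (0.570, 0.308 and 0.758 CPM) in the passage 3 libraries. At passage 20 it had 2795, 2559 and 3590 counts (277, 254 and 295 CPM). The lowest passage 20 library was thus far above the highest passage 3 library. The means were 0.545 ± 0.226 and 275 ± 20.4 CPM, and the log2 change was 8.92 (SE 0.14), or 485-fold higher. Leaving out each library in turn gave log2 changes from 8.64 to 9.26.

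Nos1 (ENSMUSG00000029361, chromosome 5, 117781032 to 117958840) was low throughout and lower at passage 20. It stood at 1.33, 1.11 and 1.42 CPM at passage 3 and at 0.396, 0.696 and 0.658 CPM at passage 20, from 67 and 19 counts in all. The log2 change was -1.12 (SE 0.32), and the call was lost with DESeq2, where the log2 change was -1.13. Nos3 (ENSMUSG00000028978, chromosome 5, 24364810 to 24384474) had 1, 5 and 2 counts at passage 3 and 1, 0 and 3 at passage 20. Its pooled ratio of passage 20 to passage 3 was 0.801, with a 95% counting interval of 0.177 to 2.99, so that no difference was detectable at this depth. Its log2 value of -0.32 became -1.65 without passage 20 replicate 3 and 0.54 without passage 3 replicate 2. Nos3 also overlaps exons of Atg9b on the opposite strand, which had 288 counts against 12 for Nos3, and no source used here says whether counting used strand. Counting intervals cover counting error only.

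The make-up of synthase transcripts changed with these levels. Per exon length, Nos2 made up 49.0%, 28.6% and 53.2% of the summed Nos1, Nos2 and Nos3 level in the passage 3 libraries. Nos1 made up 45.2%, 40.8% and 39.3% of it in the same libraries, and Nos3 5.81%, 30.6% and 7.57%, so that Nos3 was above Nos2 in replicate 2. These passage 3 shares rest on 1 to 28 counts per gene and library. At passage 20 Nos2 made up 99.9%, 99.9% and 99.8%.

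Arginases were nearly absent at both passages. Arg1 (ENSMUSG00000019987, chromosome 10, 24915221 to 24927484, minus strand) had 0, 1 and 2 counts at passage 3 and 4, 5 and 6 at passage 20. These are 0, 0.0616 and 0.101 CPM against 0.396, 0.497 and 0.493 CPM, with no overlap. The pooled ratio was 8.01 (95% counting interval 2.27 to 43.2) and rests on 3 counts at passage 3: its log2 value of 3.00 became 3.88 without passage 3 replicate 3. Arg2 (ENSMUSG00000021125, chromosome 12, 79130777 to 79156301) had 7 counts at passage 3 and 6 at passage 20, a pooled ratio of 1.37 (95% counting interval 0.381 to 4.77), and its libraries overlapped. Arg2 shares exon bases with Vti1b on the opposite strand, which had 4313 counts against 13. Arg1 and Arg2 together came to between 0.185 and 0.202 CPM at passage 3 and between 0.576 and 0.696 CPM at passage 20, far below Nos2 at the later passage.

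The enzymes that return citrulline to arginine were expressed at both passages. Ass1 (ENSMUSG00000076441, chromosome 2, 31470207 to 31520672) stood at 116, 115 and 109 CPM at passage 3 and at 126, 123 and 139.8 CPM at passage 20. The libraries did not overlap, but the log2 change of 0.20 (SE 0.06) was small: it turned to -0.13 with library sizes only, and the call was lost with upper-quartile factors (0.12) and without passage 3 replicate 3 (0.16). Asl (ENSMUSG00000025533, chromosome 5, 130011258 to 130029247, minus strand), which acts after Ass1, went from 20.1, 21.7 and 20.9 CPM to 40.6, 40.1 and 39.1 CPM. Every passage 20 library was above every passage 3 library, at a log2 change of 0.93 (SE 0.07), or 1.91-fold. The ratio of Ass1 to Asl per exon length was 11.5, 10.6 and 10.4 at passage 3 and 6.22, 6.15 and 7.16 at passage 20.

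Gch1 (ENSMUSG00000037580, chromosome 14, 47153895 to 47189413, minus strand), the gene of cofactor synthesis, had the largest log2 change after Nos2 among the 7 members that passed the filter. It stood at 1.01, 0.616 and 0.960 CPM at passage 3 and at 7.82, 6.76 and 6.91 CPM at passage 20. The groups lay far apart, from 45 against 231 counts in all, and the log2 change was 3.03 (SE 0.21), or 8.17-fold. It stayed a gene of low level: per exon length Nos2 was 0.797, 0.708 and 1.12 times Gch1 in the passage 3 libraries and 50.1, 53.3 and 60.6 times Gch1 in those of passage 20.

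The dimethylaminohydrolases were both higher, by different amounts. Ddah1 (ENSMUSG00000028194, chromosome 3, 145758675 to 145894277) went from 28.8, 30.5 and 27.8 CPM to 81.9, 76.4 and 78.6 CPM. No library of one passage came near the other, and the log2 change was 1.44 (SE 0.07), or 2.72-fold. Ddah2 (ENSMUSG00000007039, chromosome 17, 35059035 to 35062095) went from 135, 141 and 143 CPM to 172, 179 and 173 CPM, a log2 change of 0.32 (SE 0.05) that turned to -0.0097 with library sizes only. Ddah2 remained the more abundant of the pair, although its ratio to Ddah1 per exon length went from 11.7, 11.6 and 12.9 at passage 3 to 5.25, 5.87 and 5.50 at passage 20.

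Set in order of CPM per kilobase of exon, the members fell into an abundant and a scarce set at passage 3. Ddah2 (87.7), Ass1 (46.8), Ddah1 (7.29) and Asl (4.33) were separate from each other and from the rest. Gch1 (0.138), Nos2 (0.124), Nos1 (0.115), Arg2 (0.0967), Nos3 (0.0381) and Arg1 (0.0243) followed, and each overlapped the next in order between libraries. At passage 20 Nos2 (62.4) came after Ddah2 (109.7) and before Ass1 (53.7), and the libraries of Nos2 and Ass1 overlapped. Ddah1 (19.8), Asl (8.26) and Gch1 (1.15) came next without overlap, and Arg1 (0.207), Arg2 (0.135), Nos1 (0.0523) and Nos3 (0.0279) remained scarce. Of these 4, each overlapped the next.

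**Figure D2:**
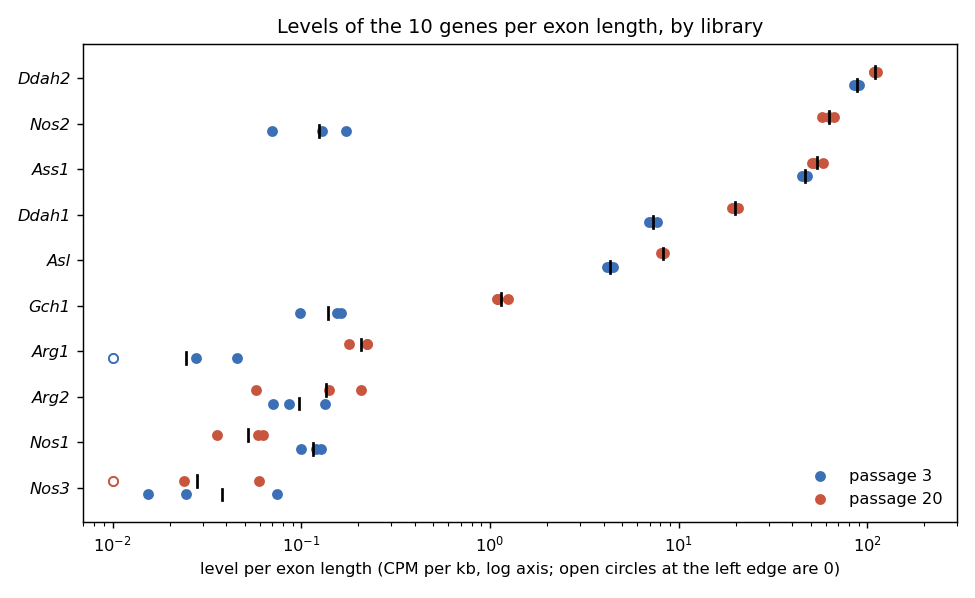
Level per exon length (CPM per kb, log axis) of the 10 genes in each library of passage 3 (blue) and passage 20 (red), with black ticks at the means and open circles for libraries at 0. Nos2 moves from 0.124 at passage 3 to 62.4 at passage 20, where it lies beside Ass1 at 53.7.

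RefSeq promoter windows on GRCm38.p6 were at hand for 5 of the 10 members: Nos1, Ass1, Gch1, Ddah1 and Ddah2. Gch1, Ddah1 and Ddah2 are shown as members that were higher at passage 20 along with Nos2. The Nos1 and Ass1 windows are not printed. That of Nos1 (117866589 to 117866838) lies wholly inside the gene as GENCODE M21 gives it, far past its start at 117781032. That of Ass1 reaches past the start of its gene, as do the last few bases of the Ddah1 window. Each line gives the 250 bases before the RefSeq start, 5′ to 3′ along the gene, with matches to the searched motifs in capitals.

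Gch1 (chr14:47189414-47189663, minus strand): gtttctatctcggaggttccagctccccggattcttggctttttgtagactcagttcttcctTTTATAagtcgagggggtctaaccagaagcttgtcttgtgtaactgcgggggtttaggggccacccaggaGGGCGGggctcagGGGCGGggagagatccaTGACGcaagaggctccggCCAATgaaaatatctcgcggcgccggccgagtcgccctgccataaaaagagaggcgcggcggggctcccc

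Ddah1 (chr3:145758442-145758691, plus strand): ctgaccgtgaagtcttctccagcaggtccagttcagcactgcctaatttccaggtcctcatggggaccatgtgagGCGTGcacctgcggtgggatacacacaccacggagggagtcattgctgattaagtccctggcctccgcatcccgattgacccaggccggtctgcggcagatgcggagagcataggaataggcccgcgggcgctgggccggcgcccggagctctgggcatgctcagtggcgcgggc

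Ddah2 (chr17:35058785-35059034, plus strand): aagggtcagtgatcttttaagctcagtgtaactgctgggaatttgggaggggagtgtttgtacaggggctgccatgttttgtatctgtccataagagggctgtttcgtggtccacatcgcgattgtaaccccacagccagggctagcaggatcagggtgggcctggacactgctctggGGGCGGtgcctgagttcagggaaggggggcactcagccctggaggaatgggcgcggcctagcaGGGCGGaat

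Motifs were searched as plain letters on both strands: the E-box CACGTG, the core of HIF sites as ACGTG or GCGTG (the former lies inside the E-box), the CRE core TGACG, the CCAAT box (CCAAT), the GC box (GGGCGG), the TATA box (TATAAA), and by degenerate letters the NF-kB site in 2 spellings and the composite site of ATF4. The Gch1 window held a CRE core 88 to 84 bases before the start, a CCAAT box 70 to 66 bases before it, 2 GC boxes and, on the opposite strand, a TATAAA match. The CRE core was found in 17.8% and CCAAT in 33.8% of all 32851 promoter windows of that length. Ddah1 held GCGTG once (28.2% of all windows, with ACGTG in 16.6%, CACGTG in 6.02% and TATAAA in 12.4%). Ddah2 held the GC box at 2 places, where 32.7% of all windows held any GC box. The NF-kB spellings (1.41% and 1.21% of all windows) and the ATF4 letters (0.816%) matched none of these 3 windows, nor did CACGTG or ACGTG. Of the windows not printed, that of Nos1 held an NF-kB spelling 90 to 81 bases before its RefSeq start. That of Ass1 held CACGTG, with ACGTG inside it, 36 to 31 bases before its start. Both of these matches lie inside the gene as GENCODE M21 gives it, and not upstream of it. A match of letters is a description of the sequence and not evidence of binding.

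Other genes of the pathway were taken from 9 lists with 93 entries, none of them members. Among 82 that could be tested, 43 rose and 18 fell, and 21 missed the threshold, with a median log2 change of 0.23 (edgeR's quasi-likelihood test over all 15143 genes, largest adjusted p of the calls = 0.0451). With library sizes only the balance turned, to 28 that rose and 35 that fell. The share called, either way, is to be read against the 74.3% of all genes tested.

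The genes listed for cationic amino acid transport include carriers of arginine, a heavy chain shared by several transporters and a lysosomal sensor. All 7 listed were tested, and 4 rose, 1 fell and 2 did not pass, with a median log2 change of 1.47 (-0.01 over all genes tested). Slc7a2, which encodes the transporter CAT-2 known for its induction alongside Nos2, rose from 113 ± 10.8 to 614 ± 70.9 CPM, 5.42-fold. Slc7a3, which encodes CAT-3, rose 11.9-fold to 42.8 CPM, and Slc3a2, the heavy chain of several amino acid transporters, 2.78-fold to 494 CPM. Slc7a1, the gene of CAT-1, named after its value was seen, rose 4.81-fold to 157 CPM. Slc38a9, a lysosomal arginine sensor, fell 1.24-fold (largest adjusted p of these 5 = 0.0119 by edgeR's quasi-likelihood test). The 2 that did not pass were Slc7a6 at a log2 change of 0.12 and Slc7a7, which shares exon bases with the far more abundant Oxa1l, at 0.23.

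Genes of tetrahydrobiopterin synthesis and recycling other than Gch1 went both ways. All 7 were tested: 2 rose, 3 fell, 2 missed the threshold, and the median was -0.33. Qdpr, dihydropteridine reductase, rose 1.68-fold, and Gchfr, whose product binds and feeds back on GTP cyclohydrolase 1, rose 1.59-fold from 1.71 to 2.68 CPM with overlapping libraries. Pts, which acts directly after Gch1, fell 1.26-fold and Pcbd1 1.53-fold (largest adjusted p of these 4 = 0.0318 by edgeR's quasi-likelihood test). The call of Gchfr was lost with DESeq2, with library sizes only or upper-quartile factors, and without any of passage 3 replicates 2 and 3 and passage 20 replicates 2 and 3 (log2 0.47 to 0.70, adjusted p 0.0585 to 0.127 in those 4 fits). Spr, the last enzyme of synthesis, was at a log2 change of 0.05 and Pcbd2 at -0.33, and neither passed.

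Of the urea cycle's mitochondrial enzymes, Otc had 0 counts in all libraries, and Cps1 had 0 counts at passage 3 and 4 at passage 20, both named after their counts were seen. Nags, which makes the activator of Cps1, rose 16.2-fold, from 4 to 45 counts in all (adjusted p = 6.01e-05 by edgeR's quasi-likelihood test). Its log2 change of 4.02 was 5.21 without passage 3 replicate 2 and 3.36 without replicate 3. The mitochondrial ornithine carrier gene Slc25a15 was expressed at both passages and fell 1.45-fold, from 23.6 to 16.3 CPM (adjusted p = 0.00126, same test). These were the only 2 of 5 listed genes that could be tested.

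Ornithine can feed polyamines or be exchanged with proline. Of 20 listed genes 19 were tested, of which 11 rose, 5 fell and 3 did not pass, at a median of 0.18. Aldh18a1, which starts the synthesis of proline and ornithine from glutamate, rose from 93.3 to 411 CPM, 4.41-fold. Sat1, the polyamine acetyltransferase, rose 2.48-fold and Odc1, ornithine decarboxylase, 1.6-fold from 196 to 313 CPM. Azin1, the antizyme inhibitor, fell 1.68-fold, Pycrl, a pyrroline carboxylate reductase, 1.46-fold and the antizyme gene Oaz2 1.30-fold (largest adjusted p of these 6 = 4.17e-05 by edgeR's quasi-likelihood test). With library sizes only, 6 of the list rose and 9 fell.

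Protein arginine methyltransferases are the source of the methylarginines that Ddah1 and Ddah2 clear. Of 10 listed genes 8 were tested, of which 3 rose, 2 fell and 3 did not pass, at a median of 0.03. Prmt1, the main enzyme of asymmetric dimethylation, rose 1.21-fold, Prmt2 1.16-fold and Prmt7 1.27-fold, but with library sizes only Prmt1 and Prmt2 turned to log2 changes of -0.057 and -0.11 and none of the list rose (5 fell). The call of Prmt2 was also lost with upper-quartile factors. Prmt9 fell 1.62-fold and Prmt6 1.76-fold (largest adjusted p of these 5 = 0.0131 by edgeR's quasi-likelihood test), and Prmt6 did not pass without passage 20 replicate 1 (log2 -0.71, adjusted p = 0.0519).

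Downstream of nitric oxide, the soluble guanylate cyclase subunit gene Gucy1b1 rose 2.24-fold, from 17.3 ± 0.897 to 38.7 ± 2.55 CPM. Its partner subunit gene Gucy1a1 rose 1.25-fold at an adjusted p = 0.0173 by edgeR's quasi-likelihood test. That call was lost with DESeq2 (log2 0.33, adjusted p = 0.0662), upper-quartile factors or no low-count filter and without passage 20 replicate 1 or any passage 3 replicate (adjusted p 0.0507 to 0.062), and the change turned to a log2 change of -0.0022 with library sizes only. Pde5a, the phosphodiesterase that breaks down cyclic GMP, fell 2.57-fold from 30.5 to 11.8 CPM, and Mrvi1, a target of cyclic GMP-dependent kinase, fell 3.18-fold. The remaining 4 of 8 listed genes did not pass, and the median was -0.03. They were Gucy1a2, Prkg1, Prkg2 and Vasp, at log2 changes of -0.21, 0.15, -0.62 and 0.15.

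Of 13 genes whose products bind synthases, 7 rose, 2 fell and 4 did not pass, at a median of 0.50. Dlg4 (PSD-95), a partner of the neuronal enzyme, rose 2.43-fold, and the chaperone gene Hsp90ab1 rose 1.94-fold. Cav1, caveolin 1, fell 1.21-fold (largest adjusted p of these 3 = 0.00303 by edgeR's quasi-likelihood test). Among genes of nitric oxide removal, Cyb5r3 and Adh5, the S-nitrosoglutathione reductase, rose 1.78-fold and 1.64-fold, and Cygb (cytoglobin) fell 1.66-fold, while the other two listed genes were too low to test.

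Genes of signals known to induce Nos2 were mostly higher. Of 18 listed, 15 were tested, of which 11 rose, 1 fell and 3 did not pass, at a median of 0.62. Il1r1, the interleukin 1 receptor, rose from 14.4 ± 0.898 to 72.9 ± 6.29 CPM, 5.08-fold. Nfkbia, an inhibitor and target of NF-kB, rose 4.62-fold from 37.2 to 172 CPM, and Irf1, an interferon-regulated transcription factor, 2.44-fold. The largest adjusted p of these 3 was 3.13e-08 by edgeR's quasi-likelihood test. Ligand transcripts, named after their counts were seen, were scarce: Ifng had 0 counts in all libraries, Tnf 2 counts at each passage, and Il1b 3 counts at passage 3 and 0 at passage 20. With library sizes only 7 of the list rose and 3 fell; 2 fell without passage 3 replicate 1 and 3 without passage 20 replicate 3.

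**Figure D3:**
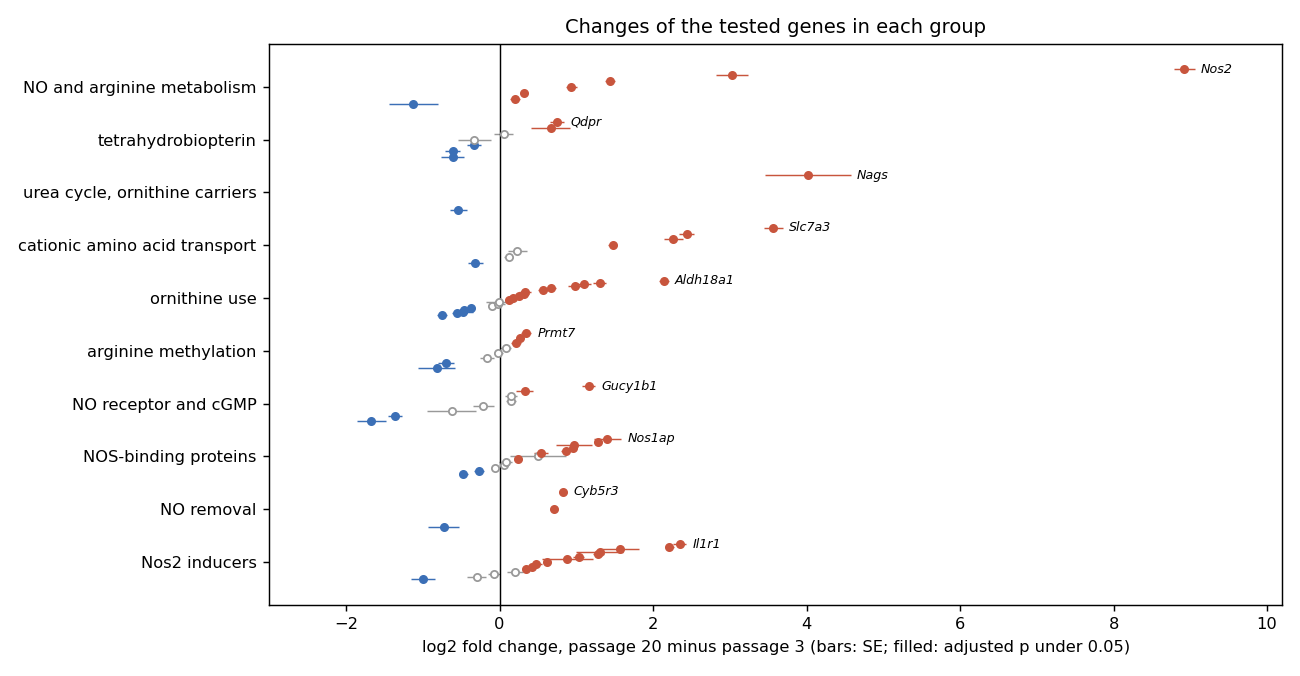
Log2 fold change of passage 20 against passage 3 with its SE for the tested genes of each group, filled red where higher and blue where lower at an adjusted p under 0.05 and open where not passed; the highest gene of each group is named. Nos2 at 8.92 lies beyond the other genes plotted, and the transporter group reaches 3.57 with Slc7a3.

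Nos2 and Arg1 are used as macrophage genes, so 12 macrophage markers were set beside them. Ptprc (CD45) and Itgam (CD11b) had 0 counts in all 6 libraries, though Itgam shares 3450 exon bases with Gm49368 on the same strand, also at 0, so that reads there may not have been assigned. In total 6 of the 12 had at most 3 counts in all. The summed marker level was 12.5 to 15.2 CPM at passage 3 and 13.1 to 14.2 CPM at passage 20. Among the 5 that could be tested, Cd14 (3.27-fold) and Csf1r (1.52-fold) rose, Mrc1 fell 5.82-fold, and Cd68 and Lyz2, at log2 changes of 0.05 and -0.16, missed the threshold (largest adjusted p of the 3 calls = 0.00677 by edgeR's quasi-likelihood test; all 5 named after their values were seen). Csf1r shares exon bases with Hmgxb3, which had 4559 counts against 311. The part of these markers in the Nos2 difference was not tested. Among 7 endothelial markers, relevant to Nos3, the summed level was 16.9 to 19.7 CPM at passage 3 and 10.9 to 11.4 CPM at passage 20. Emcn had 0 counts, Pecam1 rose 1.67-fold to 5.36 CPM (not with library sizes only, adjusted p = 0.0579), and Erg fell 4.37-fold from 6.40 CPM (adjusted p = 3.99e-06, edgeR's quasi-likelihood test).

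Among 6 neuronal markers, relevant to Nos1, the summed level was 64.0 to 66.7 CPM at passage 3 and 19.2 to 24.9 CPM at passage 20. It fell in the same direction as Nos1, and its part in that difference was not tested. Most of it was Stmn2, which fell 12.8-fold from 61.7 CPM, whereas Gad1 rose 31.5-fold to 10.0 CPM and Syt1 2.58-fold to 6.53 CPM (largest adjusted p = 1.9e-05 by edgeR's quasi-likelihood test). Hepatocyte markers, relevant to the urea cycle, summed to at most 0.576 CPM in any library, with Otc and Serpina1a at 0.

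**Figure D4:**
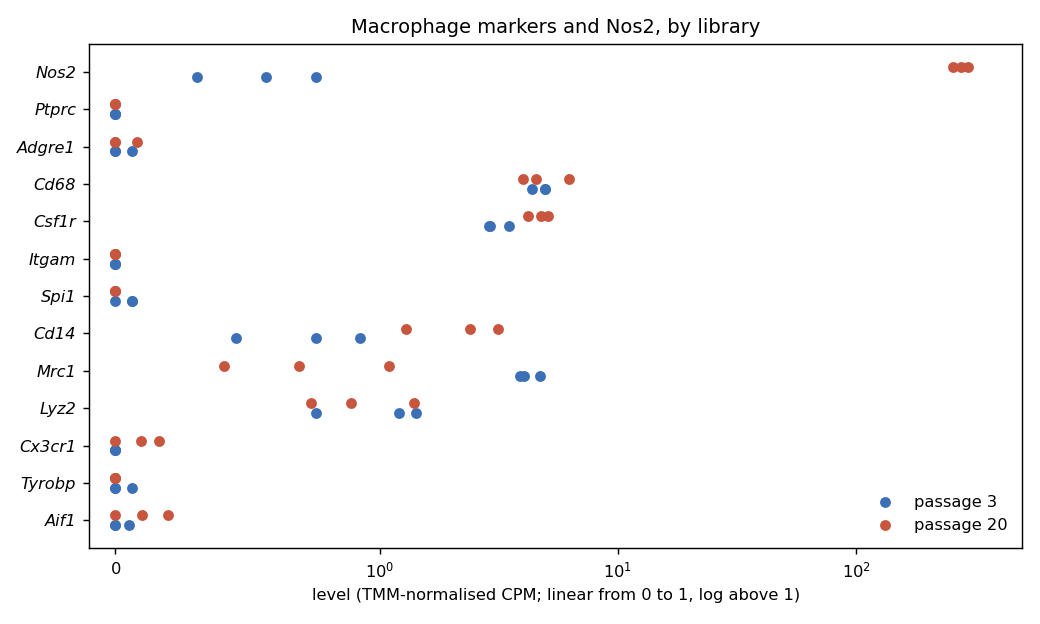
Level of 12 macrophage markers and of Nos2 in each library (CPM, linear from 0 to 1 and logarithmic above), passage 3 in blue and passage 20 in red. Nos2 reaches 254 to 295 CPM at passage 20, while Ptprc and Itgam are at 0 in every library and the most abundant marker, Cd68, has a mean of 4.91 CPM.

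The profile of Nos2 was compared with all tested genes over the 6 libraries, by the mean absolute difference of log2 CPM after centring each gene. The nearest 5 were Gm18258 (difference 0.887), Ascl2 (1.10), Gm26762 (1.25), Kctd16 (1.43) and Adm (1.43), with Pearson r from 0.962 to 0.998. The libraries form 2 groups, so such a correlation mainly reflects the passage difference. Gm18258 had 638, 569 and 110 counts in the passage 20 libraries and Gm26762 had 758, 709 and 235, both lowest in replicate 3, where Nos2 was highest. Their calls were lost with limma-voom (adjusted p = 0.148 and 0.0533). Adm, which encodes the peptide adrenomedullin, went from 2.96 ± 0.634 to 176 ± 26.0 CPM, 58.5-fold higher.

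Genes beside Nos2 on chromosome 11 did not share its size of change. Within 500 kb on each side 14 other genes were tested, of which 5 rose, 7 fell and 2 did not pass, with log2 changes from -1.92 (Sarm1) to 2.00 (Tmem97) and a median of -0.27 (edgeR's quasi-likelihood test, adjusted p = 0.00469 for Sarm1 and 8.77e-10 for Tmem97). The nearest on each side, named after their values were seen, were Lyrm9 at -0.27, which did not pass, and Lgals9 at 0.23 (adjusted p = 0.0366).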

How the data were processed

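RNA was sequenced from ciCPCs at 2 passages, 3 libraries each. The authors deposited whole-number counts per Ensembl gene for each sample. Per the submitters' processing notes, HISAT2 2.0.5, SAMtools, HTSeq, DESeq2 and GRCm38 were used, with no role stated for each; annotation release and strandedness were not given in the sources used here. Deposited log2-scale values of the authors were not used, because the transformation is not stated, nor were tables that repeat the counts.

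Names, positions and exon lengths came from GENCODE M21 (GRCm38), which matched 53706 of 53801 identifiers. Exon length counts every base in any annotated exon of a gene and can exceed the length of the transcript expressed. Ratios and orders of different genes per exon length depend on that choice, while changes of 1 gene between passages do not. Genes passing filterByExpr (15143) were scaled with TMM factors (0.873 to 1.13) and fitted in edgeR 4.0.16 under R 4.3.3 with its robust quasi-likelihood test. Benjamini-Hochberg adjusted p under 0.05 was called. SE is the log2 change divided by the root of the F statistic. On simulated counts with 200 changed genes among 14812, 66.7% of 1.5-fold, 83.3% of 2-fold and 96.3% of 4-fold changes were recovered. That simulation left most genes unchanged, whereas 74.3% of the genes tested were called here, so its rates may not hold for these data. Counting intervals at 95% are exact (Clopper-Pearson, conditional on the pooled count).

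The members and lists were chosen with earlier results of these data known. The text names all members, up to 3 called genes per pathway list and direction by adjusted p, endothelial, neuronal, macrophage and hepatocyte markers with a mean of at least 5 CPM, and the 5 genes most like Nos2. Alternatives were other scalings, DESeq2 1.42.0, limma-voom (limma 3.58.1), other filters, a replicate block and each library left out. Of the genes named, Slc7a2, Slc38a9, Qdpr, Azin1, Prmt2, Prmt6, Prmt7, Gucy1a1, Pde5a, Mrvi1, Cyb5r3, Cygb, Irf1, Nags and Nos1 share exon bases with genes of fewer counts; all are uncertain to that extent, as is Hsp90ab1, which has processed pseudogenes. Some genes that this rule names are not reported here.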

Additional observations from a re-analysis of the deposited data

How the results depend on the processing

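With library sizes in place of TMM factors, the log2 changes of Ass1 (-0.13), Ddah2 (-0.0097), Gucy1a1 (-0.0022), Prmt1 (-0.057) and Prmt2 (-0.11) turned negative, and 3528 genes rose where 5604 did with TMM, a shift that follows from the scaling itself. In that setting 1 gene of tetrahydrobiopterin synthesis rose, 2 transporters fell, 6 genes of ornithine use rose and 9 fell, 0 methyltransferases rose and 5 fell, 1 gene of nitric oxide signalling rose and 5 fell, 5 binding partners fell, and 7 inducers rose and 3 fell. With upper-quartile factors 1 gene of tetrahydrobiopterin synthesis and 1 of nitric oxide signalling rose and 2 inducers fell; DESeq2 gave 1 and 1 for the same rises. With no low-count filter 1 signalling gene rose and 2 inducers fell, and with limma-voom 2 inducers fell. Leaving out 1 library gave 1 to 2 rises in tetrahydrobiopterin synthesis, 1 to 3 rises in signalling, 1 to 2 falls among methyltransferases and 1 to 3 falls among inducers. The cause of these differences other than the scaling was not tested. Of 770 comparisons of 55 named genes with an alternative, 742 kept direction and call, 23 lost the call and 5 turned. Most of these genes were named for a small adjusted p in the same fit or chosen with the difference known. The share that kept its call is therefore no measure of how robust calls are in general. Same-numbered libraries did not deviate together (Pearson r over genes 0.014, -0.027 and 0.045). The labels do not say whether the replicate numbers pair the samples. These values cannot settle it, since a shared origin need not leave a shared deviation. With the number as a replicate block 11103 genes were called against 11245, and 2 inducers fell in place of 1. Nos2, Asl, Gch1 and Ddah1 kept direction and call in every setting run. Genes with under 20 counts in all (Nos3, Arg1 and Arg2) are limited by depth.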
